A study of Homo sapiens with 4 samples.

Results

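The p53 target genes described here were CDKN1A, MDM2, SESN1, ZMAT3, FAS, TNFRSF10B, RRM2B, XPC and TP53INP1, measured by RNA-seq in MV4-11 cells with and without knockdown of CEBPG. They were chosen by name, as genes that p53 is known to activate, with earlier results of these data known. For each gene the values of all its RefSeq transcripts were summed in each library. The 9 genes were 9 of the 16490 genes in the deposited table, and all 9 were among the 12142 genes tested, those whose mean over the 4 libraries reached 0.5 FPKM (fragments scaled by transcript length and by library size). Of the 9, 8 were higher after CEBPG knockdown, at 135% to 192% of the control level, while XPC was at 93.8% of it.

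MV4-11 is a human acute myeloid leukemia (AML) cell line of monocytic origin, and CEBPG encodes a C/EBP transcription factor of the leucine zipper class. Control cells carried sh-NC and knockdown cells sh-CEBPG#3, with 2 libraries in each group. The hairpins against CEBPG were built in the lentiviral vector pLKO.1-puro, and infected cells were selected with puromycin as stable lines. The vector of sh-NC is not given in the sources used here. The knockdown group rests on 1 hairpin, so that effects of the hairpin and of reduced CEBPG cannot be told apart. Whether both libraries of one group stem from their own infection is not given in the sources used here, and the p-values therefore measure only the spread between these libraries, which may be technical.

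p53 is a transcription factor that is kept low in unstressed cells and accumulates after DNA damage and other stress. It binds a sequence made of a pair of similar repeats and raises the transcription of genes that stop the cell cycle, trigger cell death, repair DNA or adjust metabolism. Among the genes described here, CDKN1A encodes p21, an inhibitor of cyclin-dependent kinases, and MDM2 encodes the ubiquitin ligase that marks p53 for degradation and so closes a feedback loop. FAS and TNFRSF10B (DR5) are death receptors at the cell surface. SESN1 restrains mTORC1, ZMAT3 binds RNA, TP53INP1 is a stress protein that acts with p53 and in autophagy, RRM2B is a small subunit of ribonucleotide reductase, and XPC recognises damaged DNA in nucleotide excision repair. Several of these genes also respond to other transcription factors, so that their mRNA is not a reading of p53 alone.

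CEBPG itself was 30.4 and 33.6 FPKM in control cells and 19.2 and 17.1 FPKM in knockdown cells. The knockdown mean was 56.8% of the control mean, a log2 fold change of -0.78 (SE 0.09, limma, Benjamini-Hochberg adjusted p = 8.88e-05). FPKM totals ranged from 364353 to 389766 per library, and the read depth is unknown because the values carry no counts. The correlation across genes of log2(FPKM + 1) was 0.993 and 0.994 within the groups and 0.962 to 0.964 between them. Of the myelomonocytic markers, CD33, SPI1, MPO and LYZ were all present, and CD14 was at most 1.09 FPKM. B cell markers summed to 2.83 to 3.24 FPKM and erythroid and megakaryocytic markers to 0.0576 to 0.138 FPKM. NKG7 was the 1 of 5 T and NK cell markers listed, and it rose from 42.2 and 42.3 to 53.4 and 55.8 FPKM (limma adjusted p = 0.00265). Of 5 epithelial markers KRT8 and KRT18 were listed. KRT8 rose from 2.29 and 2.35 to 6.26 and 6.19 FPKM (log2 fold change 1.12, adjusted p = 1.55e-05), and KRT18 had a log2 fold change of -0.14 (adjusted p = 0.261). The part of these markers in the results was not tested.

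The p53 consensus, a 20-base sequence made of a pair of adjoining 10-base repeats, was searched in the GRCh38 genome within 3000 bases of each RefSeq gene start, on both strands and with up to 2 letters off. Of the 9 genes, 6 have an entry in the RefSeq promoter table used here, with 14 starts in all. Matches lay near 4 of these 6 genes (CDKN1A, MDM2, ZMAT3 and FAS), and the same search found a match near 16.6% of 27305 genes. The 6 matches are shown because they are the letters in reach of the members' starts that come closest to the p53 consensus. Matched bases are in capitals, flanking bases in lower case, and each is written 5′ to 3′ on the strand of its gene.
CDKN1A, chr6:36676449-36676468, plus strand, 2 letters off: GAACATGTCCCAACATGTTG
CDKN1A, chr6:36677331-36677350, plus strand, 2 letters off: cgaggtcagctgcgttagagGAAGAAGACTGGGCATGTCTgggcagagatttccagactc
MDM2, chr12:68808923-68808942, plus strand, 2 letters off: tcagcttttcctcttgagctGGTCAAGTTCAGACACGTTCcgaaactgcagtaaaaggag
MDM2, chr12:68811195-68811214, plus strand, 2 letters off: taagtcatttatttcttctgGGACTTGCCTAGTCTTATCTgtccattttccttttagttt
ZMAT3, chr3:179070188-179070207, minus strand, 0 letters off: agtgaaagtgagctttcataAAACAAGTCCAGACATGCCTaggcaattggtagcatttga
FAS, chr10:88991309-88991328, plus strand, 2 letters off: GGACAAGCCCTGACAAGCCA

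The ZMAT3 match had 0 letters off and lay in an intron at -855 bases from the nearest RefSeq start. The first CDKN1A match lay at -2255 bases, across the GENCODE start of the gene, so that only part of it was in an untranslated exon, and the second at -1373 bases in an intron. The MDM2 matches lay in introns at -84 and 2181 bases from the nearest start. The FAS match lay at -112 bases, in a coding exon of at least 1 GENCODE transcript. In the promoters proper, from 250 bases before to 50 bases after a start, MDM2 and FAS held a match, as did 0.82% of all genes. SESN1 and XPC had no match within 3000 bases, which says only that these letters are not in this window. The C/EBP-ATF composite sequence TGATGCAA was in the promoter of 0 of the 6 genes and of 1.08% of all genes. The matches are descriptions of sequence, and no binding was measured here.

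To ask whether the p53 target genes changed with CEBPG knockdown, each was compared between the groups on the log2(FPKM + 1) scale with limma, fitted across the 12142 genes tested, and called at an adjusted p under 0.05. Of the 9 genes, 8 were called higher, where 18.5% of all genes tested were called higher, and 0 of 9 were called lower, where 23.8% of all genes were. The median log2 fold change of the 9 genes was 0.64, and that of all genes tested was -0.04. Of the 9, 7 lay above the 90th percentile of all log2 fold changes, and 2 of them, CDKN1A and MDM2, above the 95th. The groups did not overlap for the same 8 genes, with every knockdown library above both controls, as was so for 31.5% of all genes. XPC lay the other way, with both knockdown libraries below both controls, as did 40.2% of all genes. The thresholds the study used for differential expression were p under 0.05 before adjustment and a log2 fold change beyond 1 in either direction. The study put them on DESeq2 results. Here, and wherever the rule of the study is named below, they were put on limma's p and the log2(FPKM + 1) scale. Used so, 0 of the 9 genes passed, while 2.36% of all genes passed as higher and 1.05% as lower. These shares are not those of the study. The 8 genes passed the p threshold and not the fold threshold. The smallest p that an exact permutation test allows with 2 libraries against 2 is 0.333 (two-sided), so that these calls rest on limma's model of the spread across genes.

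**Figure D1:**
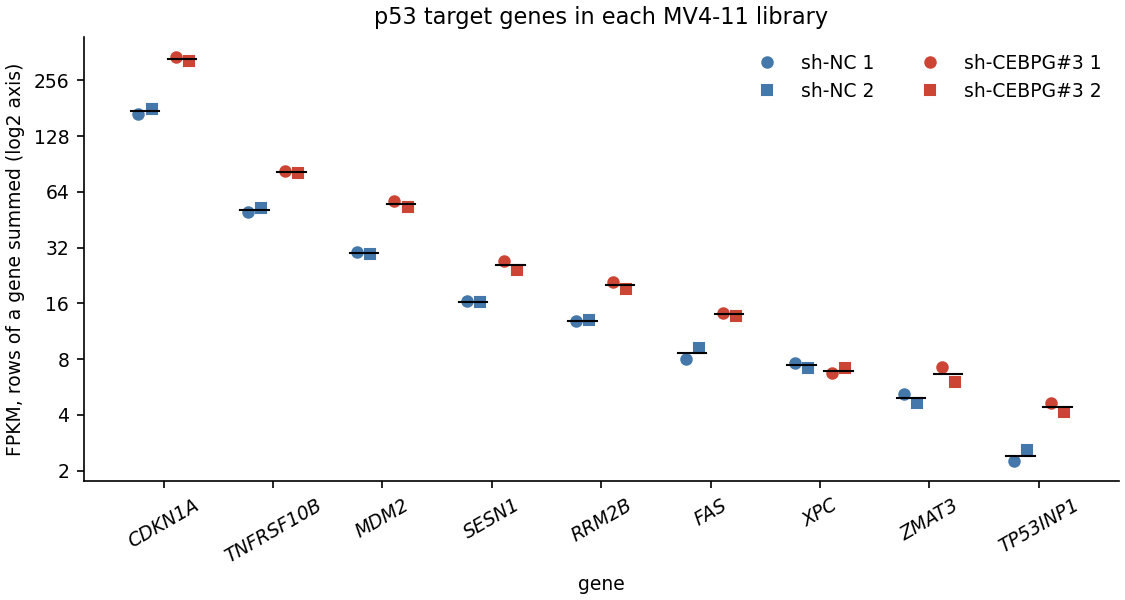
FPKM of the 9 p53 target genes in each of the 4 MV4-11 libraries (log axis), with points for the libraries and short lines for the group means. CDKN1A was at 169 and 179 FPKM in sh-NC and at 342 and 326 FPKM in sh-CEBPG#3; in 8 of the 9 genes both knockdown points sit above both control points, and in XPC they sit below.

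CDKN1A (GRCh38 chr6:36676460-36687337, plus strand, GENCODE) was the most abundant of the 9 genes. It was 169 and 179 FPKM in the controls and 342 and 326 FPKM after knockdown. Both knockdown libraries were far above both controls, and the libraries of a group lay close together. The mean rose from 174 ± 6.66 to 334 ± 11.5 FPKM (SD, n = 2 each, limma adjusted p = 5.91e-06), a log2 fold change of 0.94 (SE 0.07, 95% interval 0.78 to 1.09). This was the largest change of the 9 genes and stood at the 97.3rd percentile of all genes tested.

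MDM2 (chr12:68808177-68845544, plus strand) was 30.3 and 29.6 FPKM in the controls and 57.0 and 52.98 FPKM after knockdown. The controls were nearly equal, and the knockdown libraries were both higher. Its mean rose to 184% of control, from 29.9 ± 0.449 to 55.0 ± 2.83 FPKM (SD, n = 2 each), with a log2 fold change of 0.85 (SE 0.07, limma adjusted p = 1.68e-05). The inhibitor of p53 and the p53 target that arrests the cell cycle thus rose by similar amounts, and their 95% intervals overlapped (0.69 to 1.02 for MDM2).

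The death receptor FAS (chr10:88953813-89029605, plus strand), which binds FAS ligand, was 8.05 and 9.14 FPKM in the controls and 14.3 and 13.7 FPKM after knockdown. Its mean rose to 163% of control, with a log2 fold change of 0.64 (SE 0.09, limma adjusted p = 0.000341). TNFRSF10B (chr8:23020133-23069031, minus strand), a receptor for TRAIL, was 49.8 and 52.1 FPKM in the controls and 82.6 and 81.3 FPKM after knockdown. Its mean rose from 51.0 ± 1.61 to 81.9 ± 0.875 FPKM (SD, n = 2 each, limma adjusted p = 5.32e-05), and its log2 fold change was 0.67 (SE 0.07). Both receptors were higher in each knockdown library than in either control.

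Of 15 other genes of death receptor signalling, 13 were tested, 4 were called higher and 1 lower, with a median log2 fold change of 0.09. These were 30.8% and 7.69% of those tested, where 18.5% and 23.8% of all genes tested were called higher and lower. TNFSF10, which encodes the ligand TRAIL, was 2.59 and 2.21 FPKM in the controls and 11.0 and 9.12 FPKM after knockdown (log2 fold change 1.70, limma adjusted p = 2.94e-06). It was the gene of this list that passed the rule of the study. CASP8, the initiator caspase, rose with a log2 fold change of 0.45, BID, which carries the signal to mitochondria, with 0.42, and TNFRSF1A, a receptor for TNF, with 0.23. The TNFRSF1A call was lost without sh-NC replicate 1 (0.18) and without either sh-CEBPG#3 library (0.16 and 0.29). It was also lost with no filter on low values (limma adjusted p = 0.0745) and with the replicate block (adjusted p = 0.125). With no trend (adjusted p = 0.087) and per transcript (adjusted p = 0.157) TNFRSF1A was not called either. FASLG and TNFRSF10C were not listed in the table.

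SESN1 (chr6:108984309-109094846, minus strand), the sestrin that restrains mTORC1, was 16.4 and 16.2 FPKM in the controls and 27.0 and 24.3 FPKM after knockdown. The controls agreed closely and the knockdown libraries were both higher, with a log2 fold change of 0.62 (SE 0.08, limma adjusted p = 0.000242). TP53INP1 (chr8:94925972-94949378, minus strand) had the lowest level of the 9 genes, at 2.25 and 2.57 FPKM in the controls and 4.65 and 4.16 FPKM after knockdown. Its mean was 183% of control, and its log2 fold change was 0.66 (SE 0.11, limma adjusted p = 0.000895). At this low level the added 1 FPKM shrinks the change, and with a pseudocount of 0.1 the log2 fold change was 0.84.

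ZMAT3 (chr3:178960121-179072215, minus strand), the RNA-binding zinc finger protein, was 5.21 and 4.62 FPKM in the controls and 7.27 and 6.03 FPKM after knockdown. The groups did not overlap, but the spread within each was wider relative to the difference than for the other 7 genes that rose. Its log2 fold change was 0.37 (SE 0.11, limma adjusted p = 0.0207), the smallest of the 8 increases. The call was lost without sh-NC replicate 2 (0.30, adjusted p = 0.0662), without sh-CEBPG#3 replicate 1 (0.25, adjusted p = 0.131) and with no filter on low values (adjusted p = 0.0899).

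RRM2B (chr8:102204502-102238961, minus strand), the ribonucleotide reductase subunit that supplies deoxynucleotides outside S phase, was 12.8 and 12.9 FPKM in the controls. After knockdown it was 20.97 and 19.1 FPKM, above both controls. Its mean rose to 156% of control, with a log2 fold change of 0.60 (SE 0.08, limma adjusted p = 0.000316).

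XPC (chr3:14145147-14178621, minus strand) was 7.60 and 7.19 FPKM in the controls and 6.71 and 7.16 FPKM after knockdown. The higher knockdown library nearly reached the lower control. The log2 fold change was -0.08 (SE 0.09, 95% interval -0.28 to 0.12, limma adjusted p = 0.5), so that the interval left out the changes of the 8 other genes, the smallest of which was 0.37. Its value stood at the 45.0th percentile of all genes.

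The other 23 genes of nucleotide excision repair gave 22 tested genes, of which 2 were called higher and 7 lower, with a median log2 fold change of -0.16. The shares were 9.09% higher and 31.8% lower, against 18.5% and 23.8% of all genes tested. RAD23B and CETN2, which encode partners of XPC, were the 2 genes called higher, with log2 fold changes of 0.24 and 0.26. Neither was called without sh-NC replicate 1, sh-CEBPG#3 replicate 1 or sh-CEBPG#3 replicate 2.

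By FPKM, which is scaled by transcript length, the order of the genes in the controls was CDKN1A, TNFRSF10B, MDM2, SESN1, RRM2B, FAS, XPC, ZMAT3 and TP53INP1. No neighbours in this order overlapped in the controls. The order of the means was the same after knockdown, where ZMAT3 (6.03 and 7.27 FPKM) overlapped XPC (6.71 and 7.16 FPKM). The 9 genes together summed to 301 and 313 FPKM in the controls and to 563 and 535 FPKM after knockdown, and CDKN1A made up more of these sums than any other gene.

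Relatives of the 9 genes that share their protein family, or the enzyme in which they work, were compared with them. Of 11 such genes, 9 were tested, 2 were called higher and 2 lower. Each count was 22.2% of those tested, near the 18.5% and 23.8% of all genes called higher and lower. The p21 relatives CDKN1B (p27) and CDKN1C (p57) were the 2 called higher. CDKN1B was 16.6 and 19.2 FPKM in the controls and 25.3 and 23.8 FPKM after knockdown (log2 fold change 0.44, limma adjusted p = 0.00314). CDKN1C had a low level, at 0.376 and 0.493 FPKM in the controls and 1.10 and 1.10 FPKM after knockdown (log2 fold change 0.55, adjusted p = 0.00858).

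MDM4, the partner of MDM2 that binds and inhibits p53, was 7.88 and 7.47 FPKM in the controls and 6.48 and 5.72 FPKM after knockdown (log2 fold change -0.29, limma adjusted p = 0.0322). This call was lost without sh-NC replicate 1 (-0.26, adjusted p = 0.113), without sh-CEBPG#3 replicate 2 (-0.21, adjusted p = 0.178), with no filter (adjusted p = 0.0831) and per transcript (adjusted p = 0.474). The log2 difference of MDM2 from MDM4 was 1.82 and 1.85 in the controls and 2.95 and 3.01 after knockdown. These differences did not overlap, and they moved apart by 1.14 (exact permutation p = 0.333, the smallest that 2 against 2 libraries allow).

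RRM1, the large subunit that pairs with RRM2B, was 27.6 and 31.4 FPKM in the controls and 14.7 and 15.1 FPKM after knockdown (log2 fold change -0.93, limma adjusted p = 2.29e-05). RRM2B was therefore below RRM1 in both controls and above it in both knockdown libraries, with log2 differences of -1.05 and -1.22 against 0.48 and 0.32. RRM2, the small subunit used in S phase, was 24.1 and 25.3 FPKM in the controls and 28.8 and 27.2 FPKM after knockdown (log2 fold change 0.18, adjusted p = 0.0914).

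Of the other relatives tested, 4 did not pass the test. SESN2 was 14.5 to 16.2 FPKM in all 4 libraries (log2 fold change 0.08, limma adjusted p = 0.461). The TRAIL receptor TNFRSF10A was 9.90 and 8.56 FPKM in the controls and 8.52 and 8.14 FPKM after knockdown (log2 fold change -0.13, adjusted p = 0.298), and the decoy receptor TNFRSF10D had a log2 fold change of -0.15 (adjusted p = 0.163). TP53INP2 had a log2 fold change of 0.14 (adjusted p = 0.396). The log2 difference of TNFRSF10B from TNFRSF10A widened by 0.80 and that of SESN1 from SESN2 by 0.54, with groups that did not overlap (exact permutation p = 0.333 each). SESN3 had a mean below 0.5 FPKM.

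**Figure D2:**
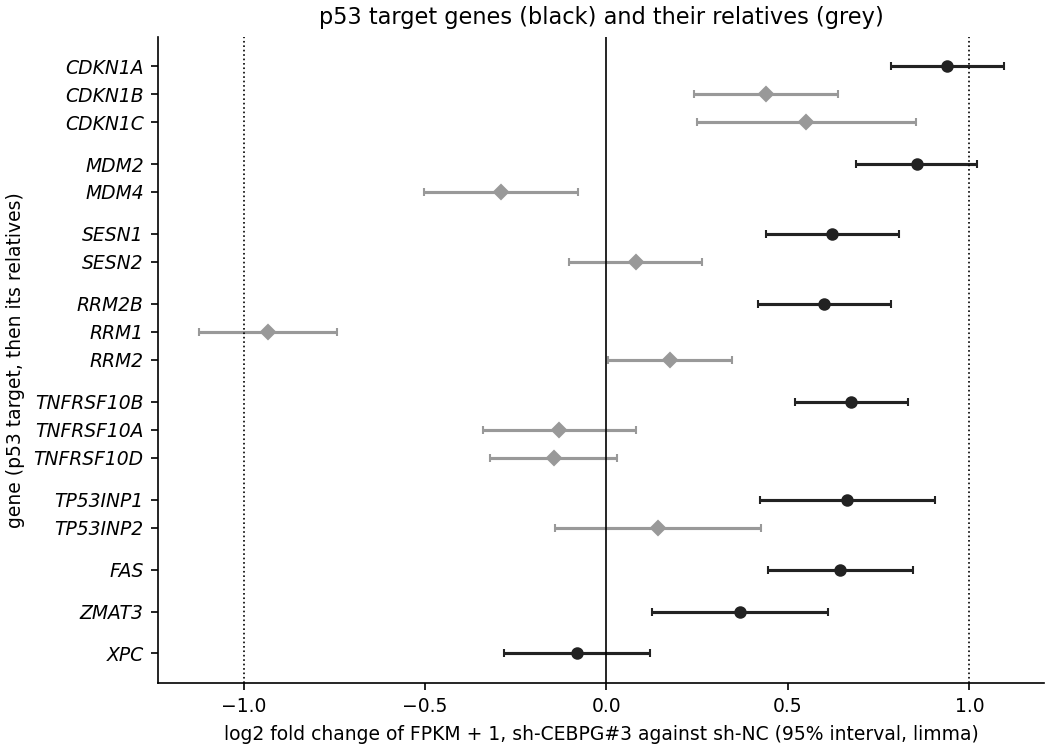
Log2 fold changes (sh-CEBPG#3 against sh-NC, log2(FPKM + 1) scale) of the p53 target genes and of their relatives, with limma's 95% intervals; dotted lines mark the fold threshold of the study. MDM2 is at 0.85 beside MDM4 at -0.29, and RRM2B at 0.60 beside RRM1 at -0.93.

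The values of single RefSeq transcripts were less steady than their sums. The 9 genes held 24 transcript rows, of which 20 passed the same filter. Of these 20, 3 were called higher, where 4.16% of the 18624 rows tested were, and 0 were called lower. They were NM_002392 of MDM2 (log2 fold change 0.88, limma adjusted p = 0.013), NM_001199933 of SESN1 (0.75, adjusted p = 0.0352) and NM_015713 of RRM2B (1.08, adjusted p = 0.0438).

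For CDKN1A, NM_000389 was 157 and 125 FPKM in the controls and 326 and 243 FPKM after knockdown. NM_001220778 was 11.1 and 50.8 FPKM in the controls and 14.9 and 82.6 FPKM after knockdown. The split between these transcripts differed more between libraries of one group than between groups, while their sum differed little within groups. It followed the replicate number: NM_000389 made up 93.1% and 95.1% of the gene in the libraries numbered 1. In those numbered 2 it made up 70.1% and 74.6%. For RRM2B the split did not follow the number, with NM_015713 at 70.3% and 48.9% in the controls and 79.7% and 90.8% after knockdown. For ZMAT3, NM_022470 was 2.02 and 1.57 FPKM in the controls and 4.16 and 5.92 FPKM after knockdown, while NM_152240 was 3.19 and 3.05 FPKM in the controls and 3.11 and 0.107 FPKM after knockdown.

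For FAS, NM_000043 was 6.73 and 8.51 FPKM in the controls and 8.41 and 10.8 FPKM after knockdown, and its groups overlapped. NM_152871 was 0.951 and 0.335 FPKM in the controls and 5.20 and 2.68 FPKM after knockdown. Its log2 fold change of 1.57 did not pass the test (limma adjusted p = 0.0756). For RRM2B, NM_015713 was 8.99 and 6.32 FPKM in the controls and 16.7 and 17.4 FPKM after knockdown, while NM_001172477 was 3.51 and 5.66 FPKM in the controls and 3.32 and 1.73 FPKM after knockdown. How the reads were shared among transcripts of one gene is not given in the sources used here, and the gene sums were therefore used for the calls.

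**Figure D3:**
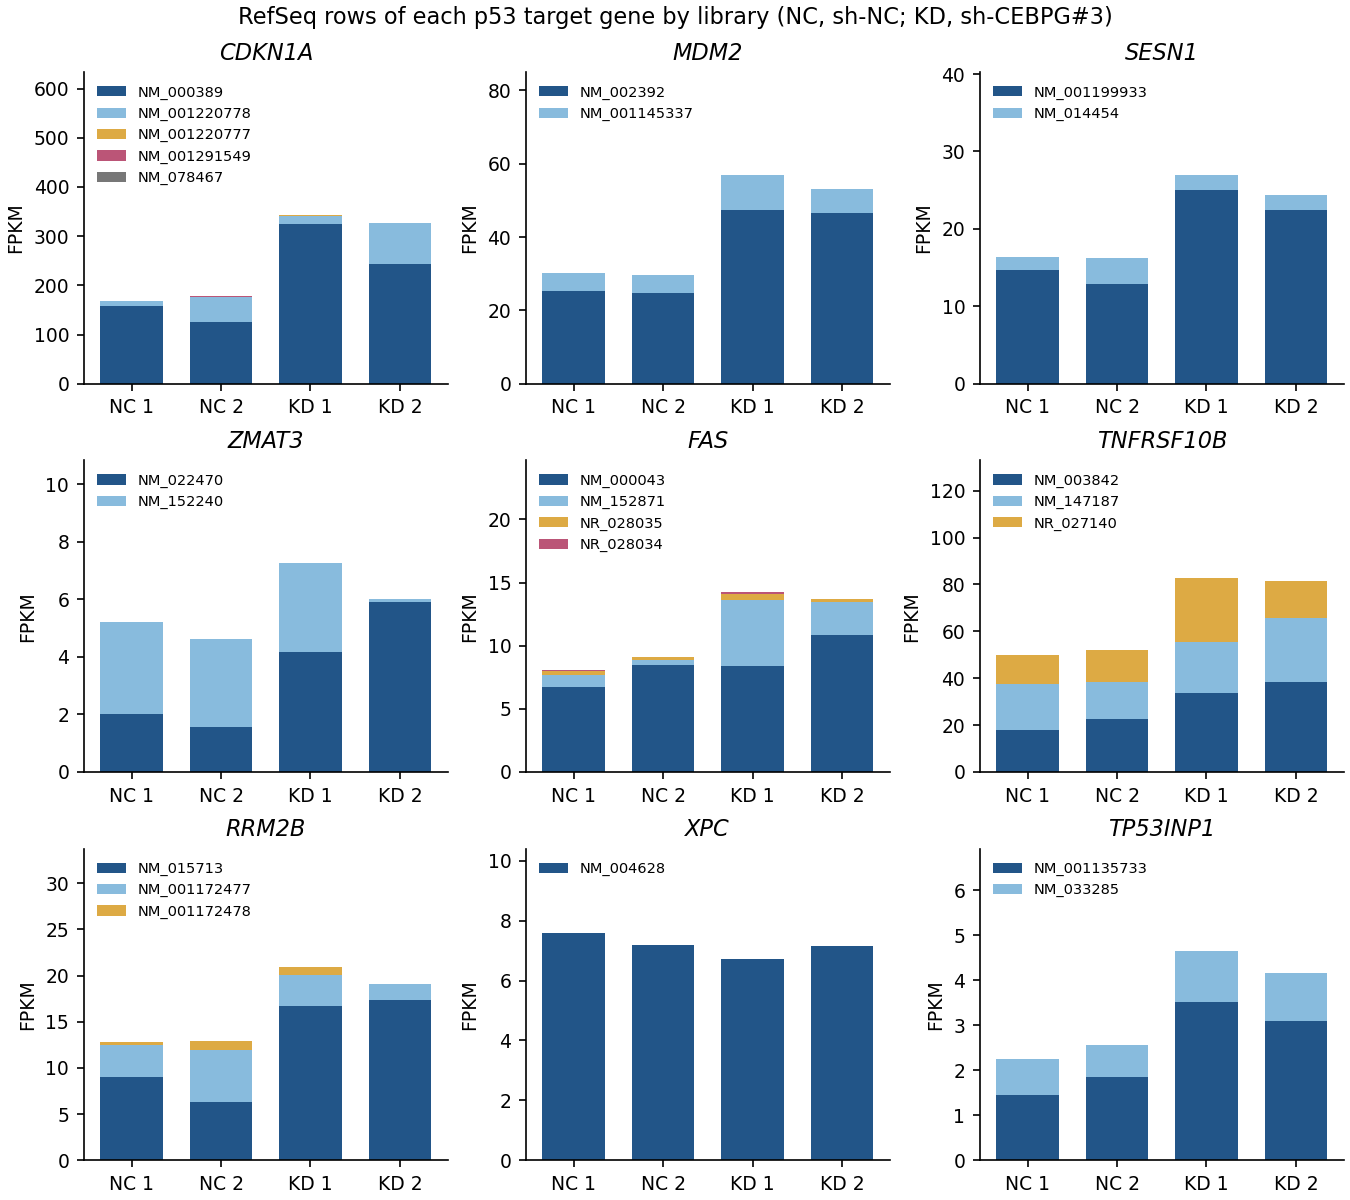
Stacked bars of the FPKM of the RefSeq transcripts of each p53 target gene, with 1 bar for each library (NC, sh-NC; KD, sh-CEBPG#3) and the transcripts in colour. The CDKN1A transcript NM_001220778 is at 11.1 and 50.8 FPKM in the 2 controls, which shows how the split between transcripts varied within a group.

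Other genes that p53 is known to activate were taken from 5 lists, grouped by role. Of their 49 genes, 43 were tested, 19 were called higher, 5 were called lower and 19 were not called, with a median log2 fold change of 0.18. Those called higher were 44.2% of the tested genes and those called lower 11.6%, where all genes tested gave 18.5% and 23.8%. Differences between the lists were not tested.

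Of 8 tested genes of arrest and checkpoint control, 5 (62.5%) were called higher and 0 lower, against 18.5% and 23.8% of all genes tested. Their median log2 fold change was 0.26. BTG2, an antiproliferative regulator of mRNA decay, was 7.95 and 8.14 FPKM in the controls and 23.6 and 20.6 FPKM after knockdown (log2 fold change 1.35, limma adjusted p = 2.94e-06). It was the gene of this list past the rule of the study. CCNG1, GADD45A, PLK3 and PHLDA3 were the others called, with log2 fold changes of 0.25 to 0.35. The count fell to 1 without sh-CEBPG#3 replicate 1 and to 3 without sh-CEBPG#3 replicate 2.

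Of 17 tested genes of metabolism and stress, 8 (47.1%) were called higher and 3 (17.6%) lower, against 18.5% and 23.8% of all genes tested. Their median log2 fold change was 0.32. GDF15, a secreted stress cytokine, was 6.95 and 9.81 FPKM in the controls and 21.8 and 19.5 FPKM after knockdown (log2 fold change 1.22, limma adjusted p = 6.78e-05). The others called higher were TIGAR, DRAM1, FUCA1, NINJ1, SERTAD1, ATF3 and PLXNB2, and those called lower were TRIAP1, IER5 and TRAF4.

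The 8 tested genes of apoptosis had a median log2 fold change of -0.08, and 0 were called lower, where 23.8% of all genes tested were. Called higher was 1 gene (12.5%, against 18.5% of all genes tested). That gene was BAX, which permeabilises mitochondria, at 94.6 and 98.0 FPKM in the controls and 111 and 114 FPKM after knockdown (log2 fold change 0.22, limma adjusted p = 0.0238). Without either sh-CEBPG#3 library, under quantile normalization, with the replicate block, with no trend and per transcript, 0 genes of the list were called higher. BBC3 (PUMA) had a log2 fold change of 0.18 (adjusted p = 0.162) and PMAIP1 (NOXA) one of -0.22 (adjusted p = 0.0757). Of 5 genes of DNA repair, 0 were called higher and 2 (40%) lower, against 18.5% and 23.8% of all genes tested. DDB2, which works with XPC in recognising damage, was 20.8 and 24.2 FPKM in the controls and 14.7 and 12.8 FPKM after knockdown (log2 fold change -0.67, adjusted p = 0.000494), and PCNA, the sliding clamp of DNA replication, fell by 0.61 on the log2 scale (adjusted p = 0.000243).

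The remaining list held p53 targets that interferon also induces, and all 5 tested genes of its 6 were called higher, with a median log2 fold change of 1.10. Of all genes tested, 18.5% were called higher. ISG15, a ubiquitin-like modifier, had a log2 fold change of 4.10, IRF9, a subunit of the interferon-activated transcription factor, 2.64 and TAP1, a peptide transporter, 1.10, and these 3 passed the rule of the study. Of 24 interferon-stimulated genes, 23 were tested and 23 were called higher, and their summed level went from 149 and 162 FPKM in the controls to 1331 and 1278 FPKM after knockdown. FAS, TNFRSF10B and TNFSF10 are known to respond to interferon as well, and the part of this rise in the changes of the p53 target genes was not tested.

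Beside the members, 12 myelomonocytic markers summed to 929 and 1015 FPKM in the controls and to 3676 and 3496 FPKM after knockdown, and 7 of the 11 tested were called higher. The 7 were 63.6% of those tested, where 18.5% of all genes tested were called higher. LYZ, which encodes lysozyme, made up most of the sum, at 567 and 610 FPKM in the controls and 3126 and 2982 FPKM after knockdown. CDKN1A is known to rise with monocytic maturation too, and the part of these markers in its change was not tested. In bulk RNA, fewer cells of a type and less RNA per cell cannot be told apart.

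Of 20 tested regulators of p53, 1 (HIPK2) was called higher and 7 lower, with a median log2 fold change of -0.14. These were 5% and 35% of those tested, where 18.5% and 23.8% of all genes tested were called higher and lower. The list holds inhibitors of p53, such as MDM4, beside activators, so that its median has no single direction for p53. The count called lower was 4 without sh-CEBPG#3 replicate 2 or with no filter on low values, and 12 with equal totals. CHEK1, a checkpoint kinase that phosphorylates p53, was 9.83 and 9.71 FPKM in the controls and 5.29 and 5.41 FPKM after knockdown (log2 fold change -0.76, limma adjusted p = 9.6e-05). CHEK1 is itself expressed mainly in dividing cells, and the part of cell division in its change was not tested.

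p21 is known to lower cell cycle genes through the DREAM complex, a repressor assembled on RBL1 or RBL2. Of 20 genes known to be repressed in this way, 19 (95%) were called lower and 0 higher, against 23.8% and 18.5% of all genes tested. Their median log2 fold change was -0.71. AURKA was the gene not called. FOXM1, a transcription factor of mitotic genes, was 12.7 and 13.6 FPKM in the controls and 6.17 and 5.93 FPKM after knockdown (log2 fold change -1.003, limma adjusted p = 1.64e-05), and was the gene of this list past the rule of the study. Of the 10 genes of the DREAM complex itself, 7 (70%) were called lower and 0 higher, against 23.8% and 18.5% of all genes tested. RBL1 was 6.25 and 5.92 FPKM in the controls and 3.17 and 2.39 FPKM after knockdown (log2 fold change -0.91, adjusted p = 0.000203). RBL2 had a log2 fold change of -0.53 (adjusted p = 0.000657). The paper reports that this cell line proliferated more slowly after CEBPG knockdown. The parts of p21, of the DREAM complex and of cell division in the changes of these lists were not tested.

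**Figure D4:**
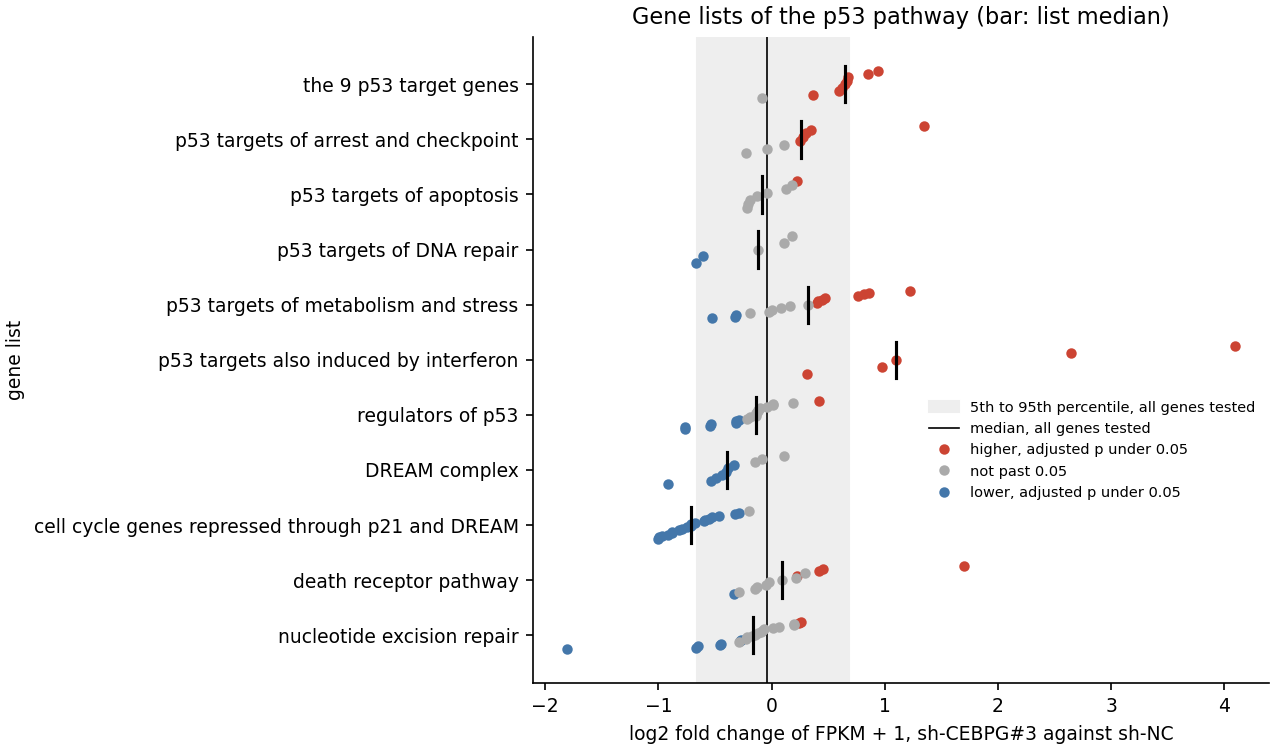
Log2 fold changes (sh-CEBPG#3 against sh-NC, log2(FPKM + 1) scale) of the tested genes in each p53 pathway list, with 1 point for each gene, coloured by its call, a short bar at the list median, and a grey band from the 5th to the 95th percentile of all genes tested. The 20 cell cycle genes lie below 0 with a median of -0.71, the 9 p53 target genes have a median of 0.64, and the apoptosis list lies around 0 with a median of -0.08.

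The genes most like CDKN1A and MDM2 across the 4 libraries were found by the Euclidean distance between log2(FPKM + 1) profiles after the mean of each was removed, over all genes tested. For CDKN1A these were SUSD3 (distance 0.0293), PPP1R27 (0.0325) and ISG20 (0.0399). For MDM2 they were CAMK2D (0.0245), ADAM17 (0.0303) and P2RX1 (0.0399). With 4 libraries in 2 groups these profiles carry little beyond the difference between groups, and the closeness is a description.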

How the data were processed

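RNA-seq was measured in 4 MV4-11 libraries, 2 with sh-NC and 2 with sh-CEBPG#3, grouped by the labels. The authors mapped the reads to hg38 with HISAT2 2.0.5, per the submitters' processing notes, and deposited 1 FPKM value per RefSeq transcript and library. The program and the annotation release behind the FPKM values are not given in the sources used here. FPKM is scaled by depth and by transcript length, and carries no counts, so that no count test, counting interval or detection floor was used.

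Of 28780 transcripts listed, 28581 had values. These were summed by symbol to 16490 genes. The 12142 genes whose mean reached 0.5 FPKM were tested on log2(FPKM + 1) by limma 3.58.1 (R 4.3.3), using lmFit and eBayes with trend, two-sided, with Benjamini-Hochberg adjustment. A fold change on this scale understates the change of low genes. The fit was tested on simulated data with known changes.

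The members and lists were chosen with earlier results of these data known. The genes named are the members, CEBPG, the relatives, in each list the genes past the rule of the study or else the 2 most changed genes called, and the 3 nearest profiles of CDKN1A and MDM2. For interferon-stimulated genes counts and sums are given. Further genes named in the lists (the smaller changes called, BBC3, PMAIP1, AURKA, LYZ, NKG7, KRT8 and KRT18) were chosen after their values were seen. Results for a list of the p53 family and for some single genes are not reported here.

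Sequences and starts come from RefSeq (GRCh38.p14), gene positions and locations from GENCODE on GRCh38, read with Python 3.11.15. Alternatives were equal totals, quantile normalization, a filter at 1 FPKM or none, a pseudocount of 0.1 or 0.01, a block for replicate number, no trend, the most abundant transcript of each gene, and each library left out in turn.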

Additional observations from a re-analysis of the deposited data

How the results depend on the processing

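The increases of CDKN1A, MDM2, SESN1, FAS, TNFRSF10B, RRM2B and TP53INP1 were called under both other pseudocounts, both other filters, both other scalings, the replicate block, no trend and each library left out. Quantile normalization and equal totals moved the median of all genes by less than 0.1 on the log2 scale. ZMAT3 lost its call with no filter (0.37, adjusted p = 0.0899) and ranged from 0.25 to 0.49 with 1 library left out, where 7 or 8 members were called higher. With the most abundant transcript in place of the gene sum, 3 members were called higher and 2 passed the rule of the study, and the log2 fold changes that lost their call were 1.00 for CDKN1A, 1.10 for ZMAT3, 0.30 for FAS, 0.79 for TNFRSF10B and 0.71 for TP53INP1.

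Over all features, the rule of the study called 490 higher and 337 lower with a pseudocount of 0.1, 509 and 373 with 0.01, and 533 and 393 per transcript, where the adjusted p called 775 and 759. Per transcript the counts called higher were 1 for arrest, 0 for apoptosis, 4 for metabolism, 0 for regulators, 0 for death receptors, 0 for excision repair and 0 for relatives, and those called lower were 0 for metabolism, 2 for regulators, 3 for DREAM, 12 for cell cycle genes, 0 for death receptors, 3 for excision repair and 1 for relatives. With no filter, 4 regulators and 1 relative were called lower and 1 excision repair gene higher. With a mean of at least 1 FPKM, 2 death receptor genes were called lower and 1 relative higher. Under quantile normalization the counts called higher were 0 for apoptosis, 1 for DNA repair and 4 for excision repair, with 1 apoptosis gene lower. Under equal totals 2 apoptosis genes, 12 regulators, 3 death receptor genes and 11 excision repair genes were called lower. With no trend, 0 apoptosis genes and 1 excision repair gene were called higher. With 1 library left out, the counts called higher ranged from 1 to 4 for arrest, 0 to 1 for apoptosis and 0 to 2 for excision repair, and those called lower from 0 to 1 for apoptosis, 1 to 2 for death receptors, 4 to 7 for regulators and 1 to 2 for relatives. The cause of these shifts was not tested.

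Across genes, same-numbered libraries hardly deviated together (r = 0.06). This gave little sign of pairing by replicate number, but 1 correlation cannot settle whether the libraries were paired. With the replicate block 8 members were again called higher, with CDKN1A at 0.94, and the counts that moved were 3 arrest genes, 0 apoptosis genes and 0 excision repair genes higher and 2 death receptor genes lower.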
